A study of Mus musculus with 15 samples.

Results

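The 6 genes Gata3, Il4, Il5, Il13, Il1rl1 and Areg make up a type 2 immune set: a transcription factor, 3 cytokines, an alarmin receptor and a tissue repair factor. They were chosen by gene name among the 34806 gene names of the array, and every probe carrying one of these names was kept, which gave 8 probes of 55680. Il1rl1 had 3 probes and each other gene had 1.

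RNA came from CD4 T lymphocytes that had been sorted by flow cytometry from small-intestinal lamina propria, the tissue layer beneath the gut epithelium, of male mice. Lysates were amplified with SuperAmp, a commercial method made for scarce RNA, and each sample's cDNA (250 ng) was labelled with Cy3 and read on a one-colour Agilent array. The control group ate normal chow, the day 10 group had eaten a high fat diet for 10 days, and the day 30 group had eaten it for 30 days, with 5 arrays in each. Per the series design text the diet was given to change the microbiota. The labels name no genotype, strain or age, and the controls carry no day, so diet and the age of the mice cannot be told apart. The labels do not state whether a group's samples were taken from different mice. Every p-value below therefore measures only the spread between these samples, part or all of which may be technical.

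GATA3 is the transcription factor that directs CD4 T cells to the Th2 fate, in which they secrete IL-4, IL-5 and IL-13. IL-4 drives antibody class switching to IgE, IL-5 sustains eosinophils, and IL-13 acts on epithelium and goblet cells; their genes lie in a shared cluster that is opened in Th2 cells. Il1rl1 encodes ST2, the receptor for the epithelial alarmin IL-33. In the gut, ST2 is also known from a subset of regulatory T cells that express Gata3, and amphiregulin, encoded by Areg, is a ligand of the EGF receptor that supports tissue repair.

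The probe sequences show what was measured, and 2 of them, which lie in coding sequence, are given here as examples (lower case throughout, 60 bases each, 5′ to 3′).
Areg probe: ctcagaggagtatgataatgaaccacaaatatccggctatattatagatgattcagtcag
Il4 probe: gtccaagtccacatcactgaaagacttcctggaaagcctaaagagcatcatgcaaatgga
The Areg probe maps to chr5:91570090-91570149 on the plus strand of build mm9. The Il4 probe maps to chr11:53426076-53426135 on the minus strand and was printed on 10 spots of each array, whereas the other 7 probes had 1 spot each. On the same chromosome lie the Il13 probe at chr11:53444828-53444887, minus strand, and the Il5 probe at chr11:53538468-53538527, plus strand. The mm9 annotation thus places 18692 bases between the Il4 and Il13 probes and 93580 bases between the Il13 and Il5 probes, and RefSeq's gene order (GRCm38.p6) sets Rad50 between Il13 and Il5. The Gata3 probe lies at chr2:9779551-9779610, minus strand.

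Il1rl1 is known to yield a long transcript for the membrane receptor and a short transcript for a soluble decoy form of ST2. The deposited annotation assigned 1 probe, at chr1:40504769-40504828 on the plus strand, to the short transcript (RefSeq variant 2). It assigned the other 2 probes to the long transcript (variant 1): an inner probe at chr1:40520014-40520073 and an end probe at chr1:40522187-40522246. The 3 probes therefore read different transcript ends of the gene, and they are treated separately below.

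RefSeq (GRCm38.p6) lists 8 transcript starts for the 6 genes, and the 250 bases before each were searched on both strands for AGATAA, a core GATA motif, and for the STAT6 motif, TTC and GAA with any 4 bases between them. AGATAA was found before 3 of the 8 starts, in Il13 and at both starts of Il1rl1, and 9.99% of 32851 RefSeq promoters of the same length hold it. The STAT6 motif was found before 1 start, the upstream one of Il4, against 5.85% of all promoters. These 4 windows are shown because they hold the matches, which are in capitals and do not overlap each other; TTATCT is AGATAA read on the other strand.
Il1rl1 upstream start, chr1:40429320-40429569, plus strand: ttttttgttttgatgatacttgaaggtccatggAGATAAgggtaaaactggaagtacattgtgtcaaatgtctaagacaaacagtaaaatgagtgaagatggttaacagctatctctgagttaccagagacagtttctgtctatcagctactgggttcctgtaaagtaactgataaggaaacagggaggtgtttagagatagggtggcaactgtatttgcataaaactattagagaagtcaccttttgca
Il1rl1 downstream start, chr1:40439379-40439628, plus strand: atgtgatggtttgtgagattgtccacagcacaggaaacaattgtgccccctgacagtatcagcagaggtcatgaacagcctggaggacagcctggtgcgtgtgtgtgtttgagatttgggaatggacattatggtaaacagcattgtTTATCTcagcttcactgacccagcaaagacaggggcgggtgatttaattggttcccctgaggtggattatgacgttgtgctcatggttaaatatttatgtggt
Il13, chr11:53634703-53634952, minus strand: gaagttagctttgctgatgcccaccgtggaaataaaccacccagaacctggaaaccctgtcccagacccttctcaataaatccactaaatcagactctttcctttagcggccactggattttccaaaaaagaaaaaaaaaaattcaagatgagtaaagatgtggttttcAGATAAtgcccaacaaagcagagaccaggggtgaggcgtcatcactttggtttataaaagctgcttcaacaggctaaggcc
Il4 upstream start, chr11:53618666-53618915, minus strand: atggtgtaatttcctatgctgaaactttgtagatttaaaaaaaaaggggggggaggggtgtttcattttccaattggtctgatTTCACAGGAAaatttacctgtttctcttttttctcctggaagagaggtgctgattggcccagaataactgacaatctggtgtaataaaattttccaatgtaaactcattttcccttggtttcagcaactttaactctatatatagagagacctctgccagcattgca
A match is a string of letters and was not tested as a binding site; binding was not measured in these samples. The windows before Gata3, Il5, Areg and the downstream Il4 start held neither string.

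Values are given as log2 of the processed intensity minus the 75th percentile of that array, so 0 marks the 75th percentile and a unit of 1 is a doubling. "Well above background" is the scanner software's flag for a spot clearly brighter than its surroundings. It was set for 63.8% ± 11.96 of spots on the control arrays, 58.5% ± 2.91 on the day 10 arrays and 51.3% ± 5.48 on the day 30 arrays (SD, n = 5 each). The controls and day 10 replicates 1, 2 and 3 were on slide 1, and day 10 replicates 4 and 5 and all day 30 arrays were on slide 2. No slide holds both control and day 30 arrays, so those 2 groups can be set against each other with the slide accounted for only through the day 10 arrays. All 10 CD4 T cell markers, among them Cd3d, Cd3e and Cd4, were well above background on all 15 arrays. The epithelial genes Krt18 and Pigr, the macrophage and dendritic genes Csf1r and Cd74 and the B cell genes Pax5 and Jchain were too, while Ms4a1 was on 0 arrays. Tests were run with limma over all 25991 genes that were well above background on at least 5 arrays. In these tests the end probe, the brightest of Il1rl1, stood for that gene. The inner probe and the short transcript's probe of Il1rl1 were tested over all 38436 probes that were well above background on at least 5 arrays. No gene passed an adjusted p of 0.05 in any of the 3 comparisons (0%). At an unadjusted p under 0.05, limma called 673 genes (2.59%) between day 10 and control, 1337 (5.14%) between day 30 and control, and 1067 (4.11%) between the diet days. Of the 6 genes, 4 were bright enough to be tested (Gata3, Il5, Il1rl1 and Areg), and 0 of these 4 passed in any comparison.

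Gata3 was well above background on all 15 arrays. Its control values were 1.96, 3.19, 4.96, 3.37 and 3.90, its day 10 values 3.51, 3.32, 1.22, 3.61 and 3.19, and its day 30 values 3.80, 3.02, 3.37, 2.41 and 2.73, each in replicate order. The 3 groups overlapped, with control replicate 3 the brightest of all arrays and day 10 replicate 3 the dimmest. The group means were 3.48 ± 1.09, 2.97 ± 0.99 and 3.06 ± 0.54 (SD, n = 5 each). The order of the means was control, day 30, day 10, and no neighbours in it differed beyond their spread. The difference was -0.51 (SE 0.55) for day 10 minus control, -0.41 (SE 0.55) for day 30 minus control and 0.09 (SE 0.55) for day 30 minus day 10, with limma adjusted p-values of 1.00, 0.976 and 0.999. Without day 10 replicate 3 the day 10 difference was -0.07. The day 30 minus control difference was -1.13 with slide as a block and -1.34 with the share of detected spots as a covariate, and neither passed. The sign of the day 30 minus day 10 difference turned with slide as a block (-0.34).

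**Figure D1:**
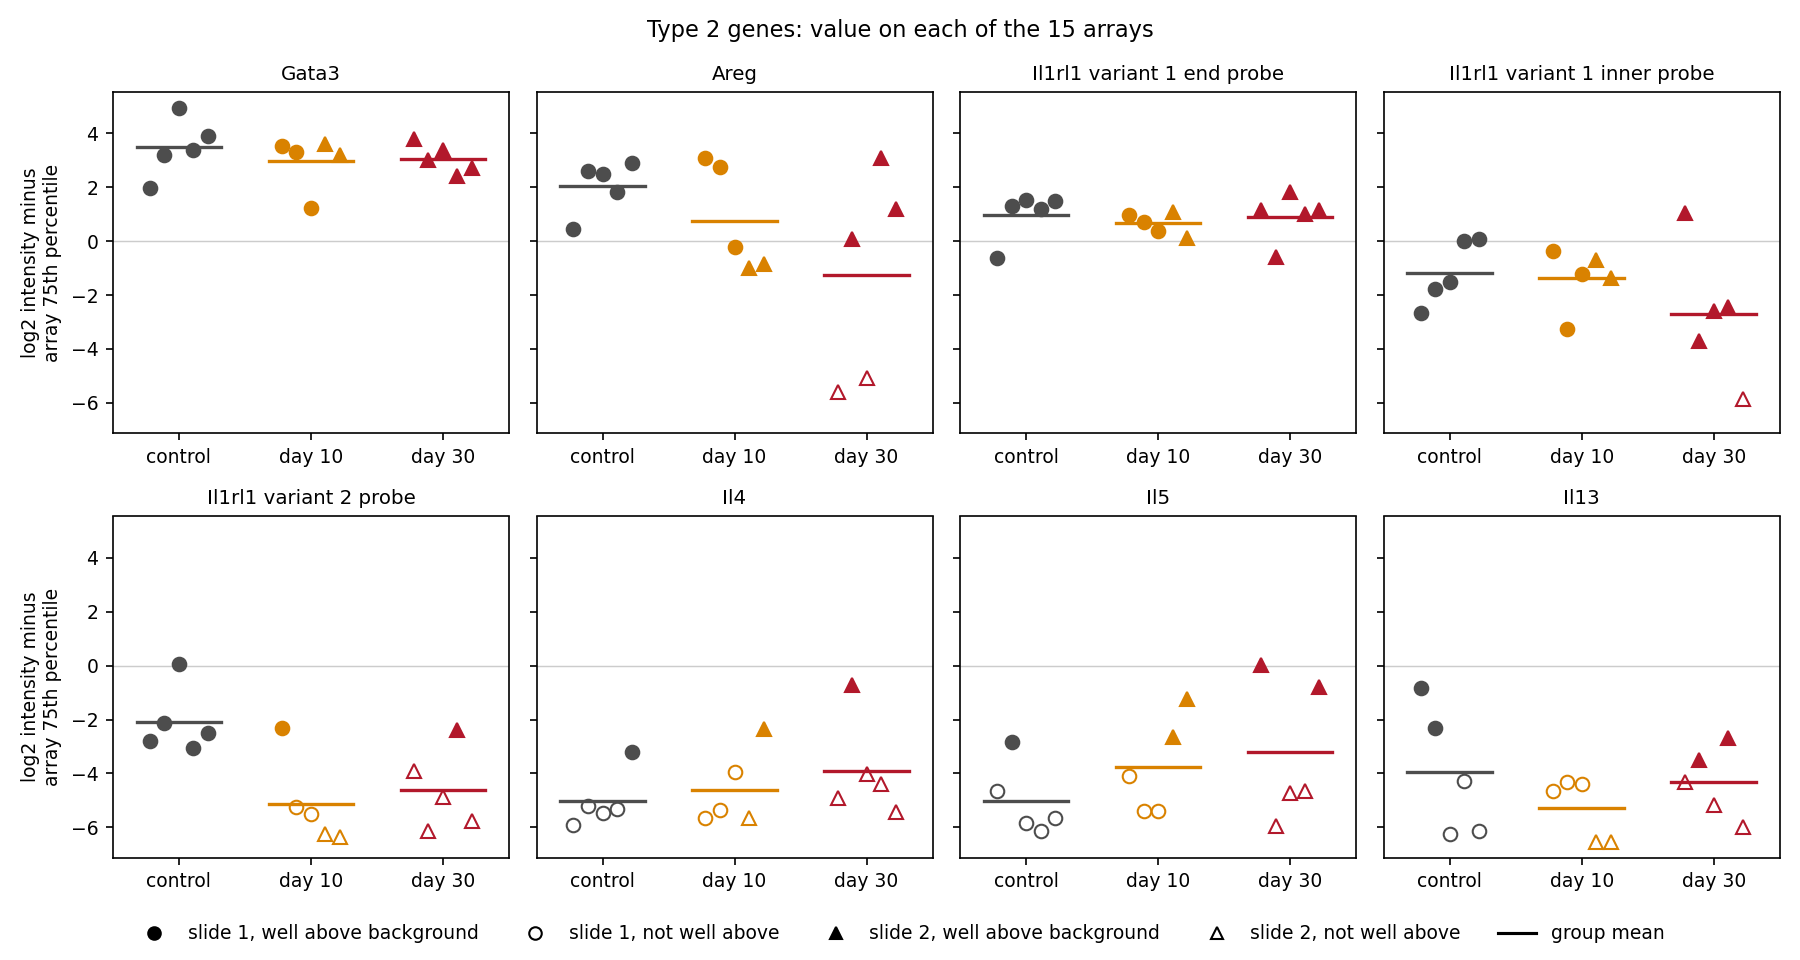
Value of each probe of the 6 genes on each array, as log2 intensity minus the array's 75th percentile, by group. Circles are slide 1 and triangles slide 2, filled where the probe was well above background, and the line is the group mean. Gata3 and the Il1rl1 variant 1 end probe are filled on all 15 arrays, whereas Il4, Il5 and Il13 are filled on 3, 5 and 4.

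The 3 Th2 cytokines were near background on most arrays, and each was bright on a few arrays scattered over the groups. Il4 was well above background on 3 of 15 arrays, Il5 on 5 and Il13 on 4. In the control group at least 1 of the 3 was detected on 3 of 5 arrays, in the day 10 group on 2 and in the day 30 group on 4. Control replicate 2 had Il5 and Il13, day 10 replicate 5 had Il4 and Il5, and day 30 replicate 2 had Il4 and Il13. No array had all 3.

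Il4 was bright on 1 array of each group. The control values were -5.93, -5.21, -5.46, -5.33 and -3.20, the day 10 values -5.66, -5.36, -3.96, -5.66 and -2.35, and the day 30 values -4.91, -0.72, -4.02, -4.41 and -5.43. Replicate 5 of the controls, replicate 5 at day 10 and replicate 2 at day 30 carried the signal, and the groups otherwise overlapped. The means were -5.03 ± 1.06, -4.60 ± 1.44 and -3.90 ± 1.86 (SD, n = 5 each), and Il4 was too dim on the other arrays to be tested with the rest.

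The 10 spots of the Il4 probe (its sequence is given above) separate the spread within an array from the spread between arrays. On the 3 arrays where Il4 was well above background, 9 to 10 of the 10 spots were flagged so, and the SD over spots was between 0.10 and 0.24. The highest of these arrays, day 30 replicate 2, had spots from -0.88 to -0.61. On the other 12 arrays 0 to 2 spots were flagged, with an SD over spots of 0.45 to 0.96. The SD between arrays of a group, 1.06 to 1.86, was larger than the SD over spots on every array. Spots of 1 array share a single amplified sample, so they measure the array's precision and not that of the group.

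**Figure D2:**
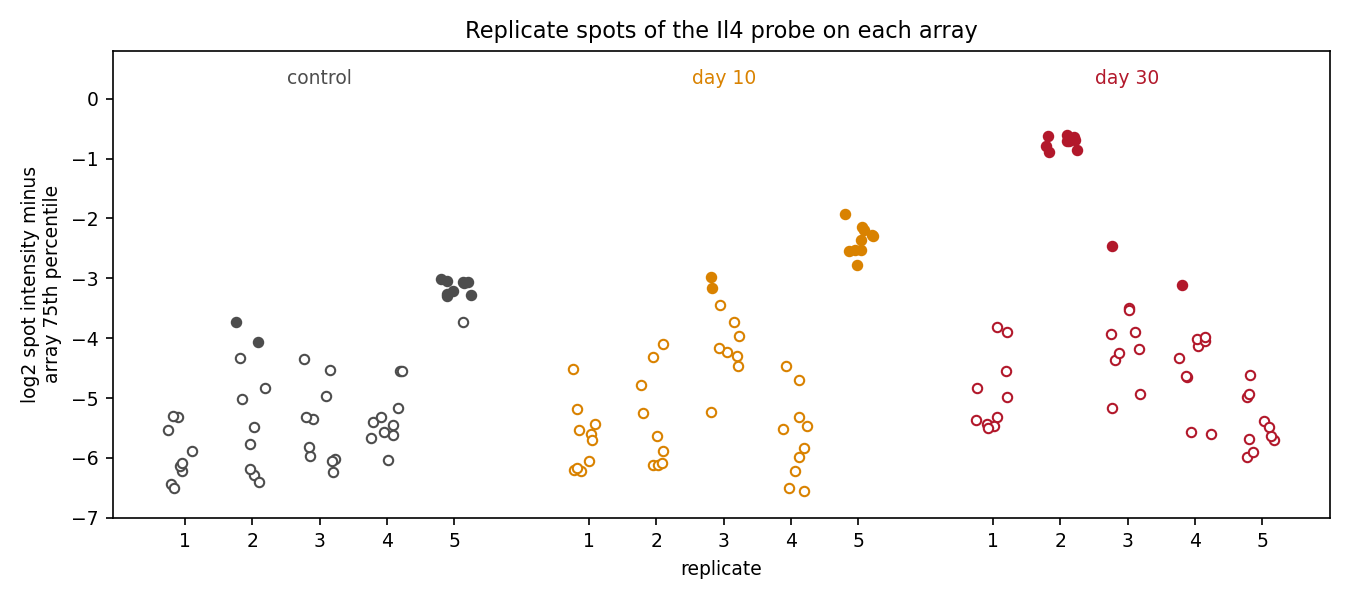
Each replicate spot of the Il4 probe on each array, as log2 spot intensity minus the array's 75th percentile, by replicate and group, filled where the spot was well above background (horizontal scatter is for legibility). The spots of control replicate 5, day 10 replicate 5 and day 30 replicate 2 form tight groups above the others.

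Il5 reached the highest level of its own probe at day 30. Its control values were -4.64, -2.84, -5.84, -6.13 and -5.66, its day 10 values -4.11, -5.39, -5.38, -2.64 and -1.25, and its day 30 values 0.03, -5.94, -4.74, -4.66 and -0.78. It was well above background on control replicate 2, day 10 replicates 4 and 5, and day 30 replicates 1 and 5, and the dim arrays of all groups overlapped. The means were -5.02 ± 1.34, -3.75 ± 1.80 and -3.22 ± 2.66 (SD, n = 5 each). The limma difference was 1.27 (SE 1.21, adjusted p = 1.00) at day 10 and 1.81 (SE 1.21, adjusted p = 0.930) at day 30, both against control, and 0.54 (SE 1.21, adjusted p = 0.999) between the diet days. Detection also differed between the slides: Il5 was well above background on 1 of 8 arrays of slide 1 and on 4 of 7 of slide 2. With slide as a block the difference was 0.06 at day 10 against control, -1.21 at day 30 against control and -1.27 between the diet days, so its sign turned in the latter 2; the part of the slide was not tested further.

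Il13 was detected on no day 10 array. The control values were -0.83, -2.33, -6.25, -4.28 and -6.15, the day 10 values -4.67, -4.33, -4.39, -6.55 and -6.54, and the day 30 values -4.32, -3.51, -5.16, -2.70 and -5.98. Control replicates 1 and 2 and day 30 replicates 2 and 4 were well above background, and the remaining values of all groups overlapped. The means were -3.97 ± 2.38, -5.30 ± 1.15 and -4.33 ± 1.30 (SD, n = 5 each). The day 10 values, and the values of the other control and day 30 arrays, only bound the level, so no fold is given. With slide as a block the day 30 minus control difference was 1.72, where the group means gave -0.37. Both rest mostly on arrays that were not well above background, so the change of sign is not read as a result.

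The long Il1rl1 transcript, which encodes the membrane receptor, was measured on nearly all arrays. The end probe gave -0.64, 1.32, 1.52, 1.19 and 1.497 on the controls, 0.96, 0.71, 0.39, 1.09 and 0.13 at day 10, and 1.15, -0.61, 1.81, 1.01 and 1.16 at day 30. All 15 arrays were well above background and the groups overlapped, with control replicate 1 and day 30 replicate 2 below the rest. The means were 0.98 ± 0.91, 0.66 ± 0.40 and 0.91 ± 0.90 (SD, n = 5 each). The limma differences were -0.32 (SE 0.53) at day 10 and -0.07 (SE 0.53) at day 30 against control, with adjusted p-values of 1.00 and 0.998, and 0.25 (SE 0.53, adjusted p = 0.999) between the diet days. The order control, day 30, day 10 was the same as for Gata3, and again no neighbours differed beyond their spread.

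The inner probe of the long transcript was well above background on 14 of 15 arrays. Its values ranged from -2.66 to 0.09 on the controls (median -1.502), from -3.27 to -0.37 at day 10 (median -1.24) and from -5.86 to 1.06 at day 30 (median -2.58). The day 30 group spanned the other groups, holding both the brightest array, replicate 1, and the only one that was not well above background, replicate 5. The differences were -0.21 (SE 1.05) and -1.53 (SE 1.05) against control at day 10 and day 30, with limma adjusted p-values of 1.00 and 0.951. The 2 probes of this transcript thus gave day 30 differences of unequal size, neither of which passed.

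The short Il1rl1 transcript is the one known to encode soluble ST2. On its probe 4 of 5 arrays of each diet group lay below every control. How many of all the probes tested do so was not counted, and the shares below are of detection flags. Its control values were -2.78, -2.11, 0.06, -3.07 and -2.49, its day 10 values -2.30, -5.27, -5.51, -6.24 and -6.35, and its day 30 values -3.92, -6.13, -4.89, -2.40 and -5.75. All 5 controls were well above background, as was 1 array at day 10 (replicate 1) and 1 at day 30 (replicate 4). In each diet group only that 1 array overlapped the controls. Of the 38436 probes tested, 123 (0.32%) were likewise well above background on all 5 controls and at most 1 day 10 array. The pattern of all 5 controls and at most 1 array in each diet group was shared by 39 probes (0.101%), this one included in both counts. Both patterns were taken from this probe's own flags after they had been seen, so the small shares are no test of the probe. Every probe counted in the second pattern, and any in the first that was dim at day 30, needed its controls to meet the filter of at least 5 arrays.

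The means of the short transcript's probe were -2.08 ± 1.25 in controls, -5.14 ± 1.65 at day 10 and -4.62 ± 1.503 at day 30 (SD, n = 5 each). The day 10 minus control difference was -3.05 (SE 0.96); limma gave an adjusted p of 1.00 over all probes, and all 5 day 10 arrays lay below the control mean. At day 30 the difference was -2.54 (SE 0.96, limma adjusted p = 0.944), again with all 5 arrays below the control mean. Control replicate 3, at 0.06, raised that mean. The control median was -2.49, and day 10 replicate 1 (-2.30) and day 30 replicate 4 (-2.40) lay above it. Lower values at an unadjusted p under 0.05 were found for 711 probes (1.85%) at day 10 and 1132 (2.95%) at day 30, this probe among them at both days. Its controls alone let this probe pass the detection filter, so a lower value on the diet was partly built into its being tested. The shares were not corrected for that. No probe passed after adjustment (0%), so neither difference passed the test across all probes. Between the diet days the difference was 0.52 (SE 0.96, adjusted p = 0.999).

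The short transcript's probe is set here against the slide, the treatment of dim values, the share of detected spots, H2-Aa and Cd74. The probe was well above background on 6 of 8 arrays of slide 1 and on 1 of 7 of slide 2. With slide as a block the difference was -2.28 (SE 1.07) at day 10 and -0.60 (SE 1.63) at day 30. Because most diet arrays give only a bound, values under the array's lowest detected signal were also raised to that signal. The differences were then -1.64 and -1.16. With the share of detected spots as a covariate they were -3.11 and -2.68. H2-Aa, an MHC class II gene of antigen-presenting cells, was likewise detected on 5 arrays of the controls, 1 of day 10 and 2 of day 30, with means of 0.82 ± 2.82, -4.35 ± 2.27 and -3.70 ± 1.61 (SD, n = 5). Cd74, the MHC class II invariant chain, ran the other way, at 1.44 ± 1.33, 2.46 ± 1.06 and 3.98 ± 0.79. Control and day 30 arrays share no slide. H2-Aa and Cd74 were named after their values were seen, and their part in the Il1rl1 values was not tested.

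Whether the short and long transcript ends of Il1rl1 moved unequally was tested on the difference between their probes within each array, a comparison chosen after the values had been seen. The short transcript's probe minus the end probe was -3.06 ± 1.21 on the controls, -5.79 ± 1.53 at day 10 and -5.52 ± 1.42 at day 30 (SD, n = 5 each). These values do not show which transcript is the more abundant, since probes differ in brightness. The shift was -2.73 at day 10 and -2.47 at day 30, and in an exact two-sided permutation test over arrays each had p = 0.0317. Adjusted over the 4 such tests this was 0.0635, which does not pass. The adjustment does not cover the choice of the short transcript's probe, which passed the detection filter through its controls alone. A lower value on the diet was thus partly built in, and the permutation p-values here are a description only. The permutation did not account for the slide, and no slide holds both control and day 30 arrays. With slide as a block the short transcript's probe differed from control by -2.28 at day 10 and -0.60 at day 30. The end probe then differed by -0.29 and 0.0030. Against the inner probe the shift was -2.84 at day 10 (exact permutation p = 0.0476, adjusted 0.0635) and -1.004 at day 30 (exact permutation p = 0.484, adjusted 0.484). When dim values were raised as before, the shifts against the end probe were -1.32 and -1.09, with exact permutation p-values of 0.0714 and 0.151. Against the inner probe they were then -1.43 and -0.06, with exact permutation p-values of 0.190 and 0.976.

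**Figure D3:**
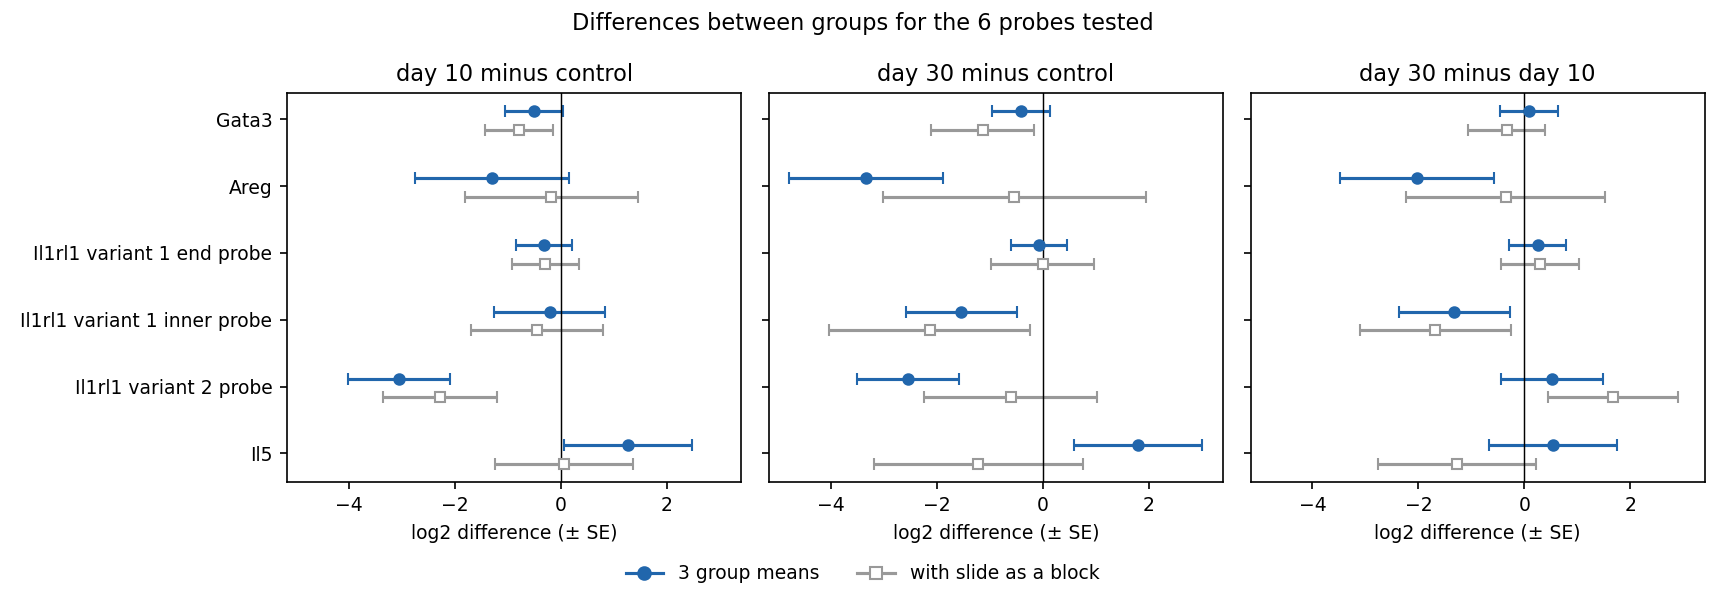
Log2 difference between groups with its standard error for the 6 probes tested, as fitted by limma over the 3 group means (filled) and with slide as a block (open). The short Il1rl1 transcript's probe has the most negative day 10 difference, -3.05, and with the slide block its day 30 difference lies at -0.60. Il5 changes side of 0 at day 30 with the slide block.

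Areg was detected on each control and each day 10 array and spread widely at day 30. Its control values were 0.46, 2.59, 2.49, 1.81 and 2.91, its day 10 values 3.08, 2.76, -0.23, -0.99 and -0.85, and its day 30 values -5.60, 0.09, -5.10, 3.07 and 1.19. At day 10 replicates 1 and 2 lay above or among the controls and replicates 3, 4 and 5 below all of them. At day 30 replicates 1 and 3 were not well above background, and replicate 4 was brighter than all controls. The 3 groups therefore overlapped.

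The Areg means were 2.05 ± 0.97 in controls, 0.76 ± 2.00 at day 10 and -1.27 ± 3.88 at day 30 (SD, n = 5 each), so the order ran control, day 10, day 30. The difference was -1.30 (SE 1.45, limma adjusted p = 1.00) for day 10 minus control, and 3 of the 5 day 10 values lay below the control mean. For day 30 minus control it was -3.32 (SE 1.45, limma adjusted p = 0.926), with 4 of 5 arrays below the control mean, and it did not pass. The difference between the diet days was -2.03 (SE 1.45, limma adjusted p = 0.999). The 2 dim day 30 arrays were those with the smallest shares of spots well above background among all 15, 48.7% for replicate 1 and 45.2% for replicate 3. With that share as a covariate the day 30 minus control difference was -2.51, and with slide as a block it was -0.54 (SE 2.48). The slide block also moved the day 10 difference, to -0.18 (SE 1.63).

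Other cells of the lamina propria can hold RNA of these genes, and in a bulk sample fewer cells of a type and less RNA per cell cannot be told apart. Of 7 markers of group 2 innate lymphoid cells other than the 6 genes, Rora and Hs3st1 were well above background on all 15 arrays. Their summed level, in multiples of the array's 75th percentile, ran from 8.94 to 63.8 in controls, from 34.1 to 55.4 at day 10 and from 41.7 to 74.98 at day 30. Of 14 mast cell and basophil markers Tpsb2 alone was well above background on all arrays and Cpa3 was on 1 array. The summed level of this list was 8.13 to 14.6 in controls, 9.53 to 17.4 at day 10 and 10.2 to 25.6 at day 30. Of 7 eosinophil markers Il5ra was well above background on all arrays. The 12 epithelial markers summed to between 233 and 323 in controls, between 222 and 350 at day 10 and between 251 and 566 at day 30. One gene carried most of each of these sums: Rora about 94.5% to 96.8% of the innate lymphoid list, Tpsb2 85.2% to 86.2% of the mast cell list and Pigr 98.4% to 99.2% of the epithelial list, by group means. Dimmer members do not show in them, such as Reg3g, which was detected on 3 arrays of the controls, 1 of day 10 and 0 of day 30, or Fabp1, on 4, 3 and 3. The dim epithelial markers did not move together. Tff3 was detected on 3, 5 and 3 arrays, and Fabp2 had means of -1.70, -1.40 and -1.30 in control, day 10 and day 30. The ranges of the 3 groups overlapped for each of these lists, and their part in the values of Il4, Il5, Il13, Il1rl1 and Areg was not tested.

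The regulatory T cell list, whose cells can carry Gata3, ST2 and amphiregulin, was well above background on all arrays for 5 of its 10 genes, Foxp3, Ctla4, Il10, Tigit and Tnfrsf18. Its summed level ran from 37.2 to 281 in controls, from 104 to 157 at day 10 and from 103 to 230 at day 30. Ctla4 was the brightest gene of this list, with means of 6.41, 6.42 and 6.61 in control, day 10 and day 30, followed by Tigit (5.13, 4.96 and 5.30). Dimmer genes show little in the sum. Foxp3 had means of 0.80 ± 1.39, 0.48 ± 1.49 and -0.84 ± 0.80, and Tnfrsf18 of 1.86 ± 0.55, 1.91 ± 0.38 and 1.77 ± 0.56 (SD, n = 5). Their part in the values of the 6 genes was not tested.

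The remaining 75 genes of a type 2 pathway list place the 6 genes among their ligands, receptors and signalling partners. Of these, 65 were tested. At day 10 against control 33 were higher and 32 lower, with a median difference of 0.02 against -0.0016 over all genes tested. At day 30 against control 37 were higher and 28 lower (median 0.13 against 0.01), and at day 30 against day 10 34 were higher and 31 lower (median 0.03 against 0.06). In all 3 comparisons 0 of the 65 passed the limma adjusted p. At an unadjusted p under 0.05 there were 1 (Ccr8), 6 (Il4ra, Il2rg, Stat6, Nfatc2, Epas1 and Traf3ip2) and 2 (Il4ra and Ikzf1) of 65, which are set against the 2.59%, 5.14% and 4.11% of all genes above. These counts moved with the setting: from 0 to 7 at day 10, the 7 with the share of detected spots as a covariate, and from 1 to 14 at day 30 against control. The 14 arose without control replicate 3, while without day 30 replicate 1 or 3 the count was 2, and without control replicate 2 or 4 it was 3. Between the diet days it ranged from 1 to 4.

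With slide as a block 11 of the 65 differences turned sign at day 10 against control, 20 at day 30 against control and 9 between the diet days. The genes of most extreme difference were then Tyk2 (3.37) and Ccr8 (-2.83) at day 10, Ccr3 (3.69) and Traf3ip2 (-5.78) at day 30, and Ccr4 (3.09) and Traf3ip2 (-4.26) between the diet days. The extremes named below are those without the block.

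Among the ligands, Il33, whose product binds ST2, was well above background on 0 of 15 arrays. Il25 was detected on all 15, with means of -0.92 ± 0.88, -0.96 ± 1.07 and -0.72 ± 1.49 in control, day 10 and day 30 (SD, n = 5). Tslp was detected on 9 arrays. The further Th2-associated cytokines Il9, Il3 and Csf2 were detected on 4, 6 and 5 arrays, and the tested Il3 and Csf2 differed from control by between -0.65 and 1.46 with limma adjusted p-values of 0.974 and above. The day 30 difference of Csf2 was 0.28, and -1.81 with slide as a block. Il10 was detected on all arrays, and its means were 2.64 ± 1.37, 2.26 ± 0.37 and 1.39 ± 0.97. Its day 30 minus control difference was -1.25 (SE 0.61, limma adjusted p = 0.926).

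Among the receptors, Il4ra, the chain shared by the IL-4 and IL-13 receptors, was high on all 15 arrays, at 3.91 ± 0.34 in controls, 3.91 ± 0.39 at day 10 and 4.71 ± 0.68 at day 30 (SD, n = 5). The day 30 minus control difference was 0.81 (SE 0.34, limma adjusted p = 0.926), and the groups overlapped. The 2 probes of Il4ra disagreed at day 10, where the dimmer one gave 1.32 and the brighter one -0.00 against control, and were closer at day 30, with 0.70 and 0.81. Il2rg, the common gamma chain that pairs with Il4ra, had a day 30 minus control difference of 1.00 (SE 0.47, adjusted p = 0.926). Il13ra1, the IL-13 receptor chain, was detected on 4 arrays. Il1rap, the partner chain of ST2, was detected on 8 arrays and Il17rb, a chain of the IL-25 receptor, on 9. Crlf2 and Il7r, which together bind TSLP, were detected on all 15 arrays, and their day 30 minus control differences were 0.62 (SE 0.75) and 0.87 (SE 0.63). Egfr, the receptor of amphiregulin, was well above background on all 15 arrays at -2.18 ± 1.03, -2.33 ± 0.42 and -2.58 ± 0.52.

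In the signalling group, Stat6, which transmits the IL-4 receptor signal, had means of 2.41 ± 1.44 in controls, 3.33 ± 0.21 at day 10 and 3.64 ± 0.55 at day 30 (SD, n = 5). Its day 30 minus control difference was 1.23 (SE 0.54, limma adjusted p = 0.926), and 2 dimmer probes of the gene gave 1.202 and -0.36. Nfatc2, a factor of T cell receptor signalling, had the most positive difference of the list at day 30, 1.35 (SE 0.63, limma adjusted p = 0.926), and its other probe gave -0.10. Traf3ip2, an adaptor of the IL-17 receptor family that includes the IL-25 receptor, had the most negative difference of the list at day 30, -2.93 (SE 1.30, adjusted p = 0.926). It was also the most negative against day 10, at -2.55. Myd88, the adaptor of ST2, differed from control by 0.31 at day 10 and 0.08 at day 30 (SE 0.86 each), the latter turning to -0.63 with slide as a block. Tyk2, a Janus kinase, had the most positive difference of the list at day 10, 2.90 (SE 1.44, limma adjusted p = 1.00).

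Among the transcription factors, Maf, Irf4 and Rora were detected on all 15 arrays, Bhlhe41 on 13 and Pparg on 2, both of them controls. The day 30 minus control differences of Maf, Irf4, Rora and Bhlhe41 were 0.51, -0.44, 0.67 and -0.12, with limma adjusted p-values of 0.932 and above. Epas1 and Ikzf1 are named after their values were seen, for an unadjusted p under 0.05. Epas1 differed by 0.84 (SE 0.34, limma adjusted p = 0.926) at day 30, while its 2 other probes gave 0.08 and -0.14. Gfi1, a repressor that supports Th2 cell growth, had the most positive day 30 minus day 10 difference of the list, 2.33 (SE 1.33, adjusted p = 0.999). Ikzf1 gave 1.58 (SE 0.59, adjusted p = 0.999) in that comparison, and its 2 other probes gave 1.29 and -1.05.

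Of the chemokine and prostaglandin receptors found on Th2 cells, Ccr8 was detected on 5 arrays of the controls, 2 of day 10 and 3 of day 30. Its means were 0.26 ± 2.29, -3.34 ± 1.91 and -1.43 ± 2.79 (SD, n = 5), and the day 10 difference of -3.60 (SE 1.36, limma adjusted p = 1.00) was the most negative of the list. Its second probe gave -2.42 at day 10 and, with the opposite sign to the first, 1.64 at day 30. Ccr4 was detected on 12 arrays and Ptgdr2 on 7, and their day 10 differences were -1.10 (SE 1.11) and -1.02 (SE 1.66), which turned to 0.11 and 0.45 with slide as a block.

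**Figure D4:**
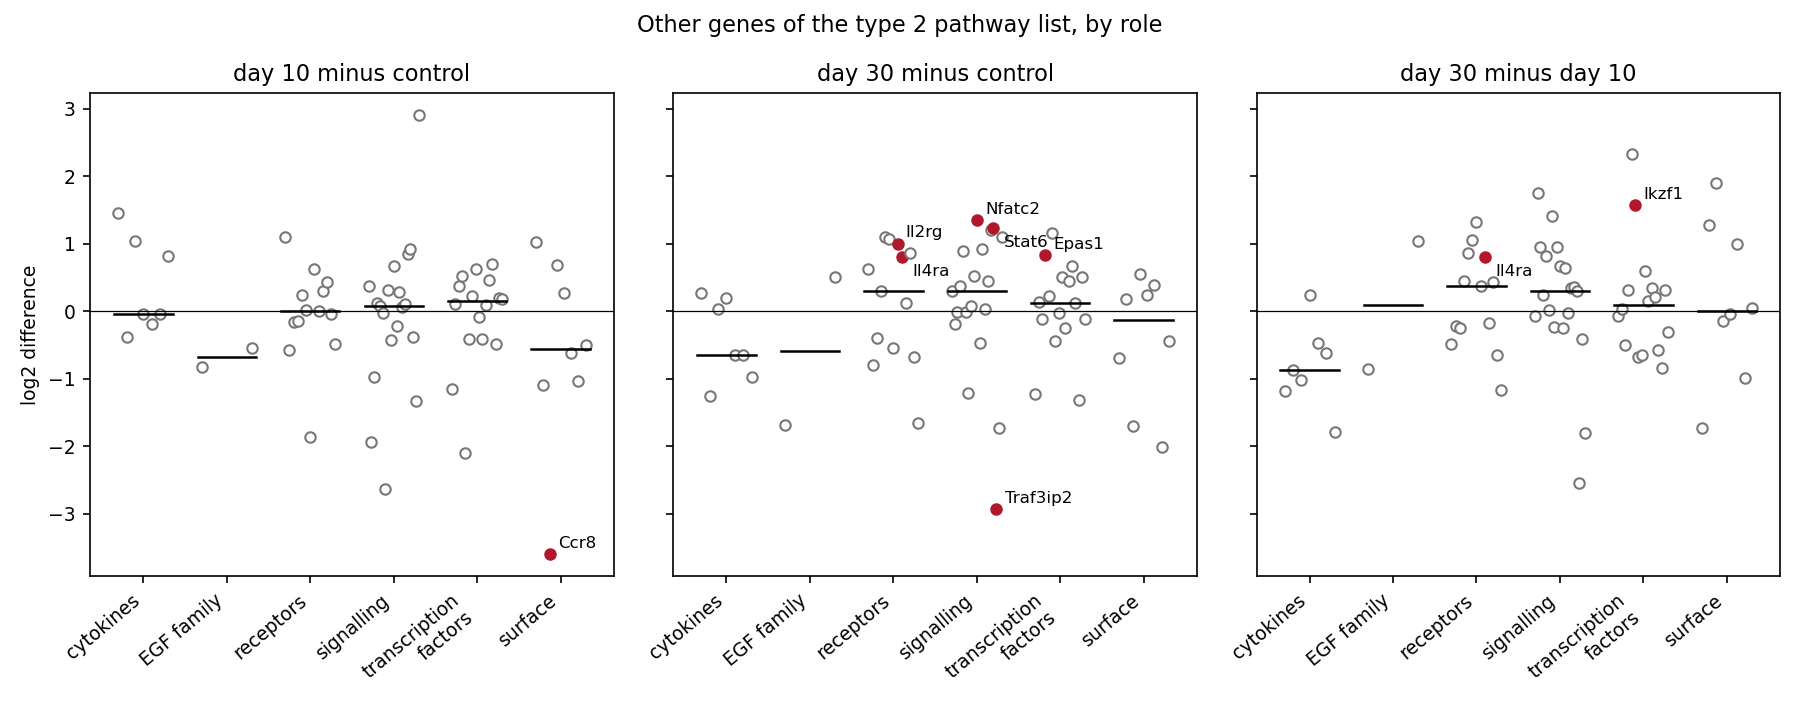
Log2 difference between groups for the 65 other genes of the pathway list that were tested, by role. Each point is a gene, the line is the median of its role, and red points have an unadjusted limma p under 0.05 and carry names; none passed after adjustment. The medians of all roles but the EGF family, with 2 tested genes, lie between -0.87 and 0.38.

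The genes whose values followed each tested gene most closely over the 15 arrays were sought among 19421 genes well above background on at least 10 arrays. For Gata3 they were Zdhhc2, Khdrbs1 and Nipbl, with Pearson r of 0.889, 0.885 and 0.877. For Il1rl1, at its end probe, they were Rif1, Tgoln1 and Traf1 (0.941, 0.935 and 0.901). For Areg the named ones were Epsti1 and Slc33a1 (0.903 and 0.883), and for Il5 Fxr2 and Ncoa1 (0.860 and 0.830). These are the highest of many values, all arrays share the same scaling and groups, and they are given as a description.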

How the data were processed

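The scanner files hold linear intensity values per spot, per the file headers, which name Agilent Feature Extraction 10.7.3.1, protocol GE1_107_Sep09 and build mm9. Each spot carries the deposited 0 or 1 flags for well above background and outlier. A deposited table of log2 values, with values for part of the probes on each array, served as an alternative; the authors' steps that led to it and its centring are not stated in these sources.

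The processed intensity was set to log2 and the array's 75th percentile over non-control probes was subtracted. Outlier spots and 1 damaged spot line were left out, and spots of a probe were averaged. No spot was saturated (0 on each array). Of several probes of a gene the one with the highest mean stood for it, and it was tested if well above background on at least 5 of 15 arrays. Group means were fitted over the 15 arrays in limma 3.58.1 (R 4.3.3; two-sided moderated test, lmFit and eBayes with trend, Benjamini-Hochberg over all genes or probes tested), after a check on simulated data. Single within-array differences had exact permutation tests.

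The 6 genes, the pathway and marker lists and the rule for named genes (the 6 genes at all probes, set pathway genes, the list's extremes and 3 nearest genes by correlation) were chosen with earlier results of these data known. Alternatives covered background correction, normalization, dim values, filters, slide, replicate number, probe choice, detection share and leaving out each array. The number of arrays (15) limits the precision. Same-numbered samples of different groups did not deviate together (correlations from -0.13 to 0.15 over 15 pairs), so replicate numbers were not taken as pairs. Pairs of arrays differed by a median of at least 0.80 log2 units, so no 2 files held the same values.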

Additional observations from a re-analysis of the deposited data

Results flagged for a closer look

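In 4 of 24 groups of 5 arrays, 1 array stood apart from the other 4 by more than Dixon's critical ratio of 0.71; chance alone sets 1 apart in about 1 in 20 groups. Gata3 on day 10 replicate 3 was at 1.22, below the next value of 3.19. Il4 on control replicate 5 was at -3.20, above the next value of -5.21, and this was the single control array on which Il4 was well above background. The short Il1rl1 transcript's probe on day 10 replicate 1 was at -2.30, above the next value of -5.27. The Il1rl1 end probe on control replicate 1 was at -0.64, below the next value of 1.19; that array had the largest share of spots well above background, 82.0%.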

How the results depend on the processing

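limma called 0 genes at an adjusted p of 0.05 in all 24 alternatives for day 10 against control, in 22 of 23 for day 30 against control and in 22 of 24 for day 30 against day 10. With slide as a block 1 gene was called for day 30 against control, Vkorc1l1, lower by a log2 difference of -12.70. For day 30 against day 10, 1 unnamed probe was called when every probe was tested on its own, and leaving out single arrays called 0 to 2 genes, the 2 being As3mt and Suclg2 without day 10 replicate 4. None of these is one of the 6 genes. Gata3, Il5, Il1rl1 and Areg were called under no alternative that tested them, and Il4 and Il13, tested only without the filter on dim probes, were not called there. The causes were not tested. The replicate block gave the same differences as the group means and called 0 genes, and 3 of 15 arrays correlated best with an array of their own number.

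Several small differences turned sign. For day 30 minus day 10, Gata3 turned to -0.20 under quantile normalization and under a percentile over detected probes, -0.31 in the deposited table, -0.34 with the slide block or within slide 2 and -0.44 with the detected share in the model; leaving out arrays gave -0.34 to 0.26. Il5 turned to -1.27 with the slide block or within slide 2 (-0.28 to 1.22 without single arrays), and at day 30 minus control to -1.21 with the slide block. The Il1rl1 end probe turned at day 30 minus day 10 to -0.044 (percentile over detected probes), -0.16 (deposited table) and -0.23 (detection share), and the mean over the gene's probes, which takes in the short transcript, was -0.19, and at day 30 minus control to 0.0030 with the slide block (-0.48 to 0.31 without single arrays). The inner probe turned at day 10 to 0.10 under quantile normalization (-0.58 to 0.26 without single arrays). The short transcript's probe ranged from -0.039 to 1.22 at day 30 minus day 10 without single arrays. Areg turned to 0.26 in that comparison in the deposited table, which holds only 3 Areg values at day 30, so the arrays compared differ. The short transcript's day 10 minus control difference stayed negative in all 22 alternatives, from -3.76 to -0.997 (normexp), with adjusted p-values from 0.834 to 1.00. Some of these alternatives return the main value of -3.05 by construction, such as the replicate block and the fit without the filter. They are no separate check of the sign.

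Signal over background limits Il4, Il5, Il13 and the short Il1rl1 transcript most: where an array is not well above background its value is a bound.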

Other observations

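In the deposited value table the short Il1rl1 transcript's probe had a value on 4 control arrays, 0 day 10 arrays and 1 day 30 array. Il13 had a value on 2 control, 0 day 10 and 2 day 30 arrays, and Il4 on 0 control, 1 day 10 and 2 day 30 arrays. In that table Gata3 averaged 8.12 in controls (range 7.79 to 8.39, 5 values) and 7.34 at day 30 (range 7.05 to 7.59, 5 values). The day 30 minus control difference there was -0.78 (limma adjusted p = 0.548). It did not pass, and these groups share no slide. Areg averaged 7.27 over 5 control values, 6.38 over 5 day 10 values and 6.64 over 3 day 30 values.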
